A study of Mus musculus with 37 samples.

Results

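Ipsilateral cortical astrocytes of injured mice that did not develop post-traumatic epilepsy (PTE-) were compared with those of sham mice. The comparison took the 10 libraries labelled Ipsi PTE- and the 5 labelled Ipsi SHAM, 15 of the 37 libraries of the series, and left out the injured mice that developed epilepsy. The injury was a controlled cortical impact (CCI) over the right parietal cortex, and the tissue was collected at 4 months. Genotype was given in the labels as WT CD31 Injured and WT CD31 Sham, whereas the methods of the study describe CD1 males. Ages were not stated. Sham mice also underwent craniectomy and carried EEG electrodes in the months before collection, so the groups share the skull opening and the implants. Astrocytes were enriched from dissociated cortex with beads against the surface antigen ACSA-2, each library came from 1 mouse, and all genes in the table were examined.

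After a focal brain injury astrocytes enter a state called reactive astrogliosis, in which intermediate filament genes such as Gfap and Vim are raised together with protease inhibitors and complement genes. Cytokines of the interleukin-6 family, among them ciliary neurotrophic factor (Cntf), act through the shared receptor Il6st and the transcription factor Stat3 and are known inducers of this state. Bead enrichment leaves some RNA of neighbouring cells, and myelin, microglial, neuronal and ependymal genes are therefore described beside the astrocyte genes.

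Expression was given as TPM, the share of transcripts after correction for transcript length, a unit that keeps no record of sequencing depth. PTE- mouse 9_14 stood apart from the other libraries. It had 10727 genes above 0, against 15599 to 18319 in the other 14, and 865 of 8272 genes that exceeded 5 TPM in each of the other 14 were listed at 0 in it. Its median correlation with the other libraries was 0.733, against 0.895 to 0.954 for the rest, with sham mouse 9_11 the next lowest. A value of 0 in mouse 9_14 is therefore given only as listed at 0. The counts over all genes and many other results are given with and without this library, the rest in 1 form only. Mitochondrial transcripts took 2.67 to 9.85% of TPM in PTE- and 1.8 to 9.68% in sham libraries. The 14 astrocyte markers listed were all measurable, with summed levels of 21100 to 28700 TPM in PTE- and 22400 to 29900 TPM in sham libraries. Mbp, a myelin gene, averaged 717 TPM in PTE- and 1720 TPM in sham libraries, Rbfox3, a neuronal gene, 17.6 and 24.9 TPM, and Itgam, a microglial gene, 1.19 and 2.27 TPM. In bulk libraries fewer cells of a type and less RNA per cell cannot be told apart.

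Of the genes listed for reactive astrogliosis, 6 of 28 tested were called higher in PTE- libraries, as were 7 of 13 motile cilia and ependymal markers. Of 16 myelin genes 6 were called lower. A gene was called where limma, on log2(TPM + 1), gave an unadjusted p under 0.05 and a difference of at least 1.2-fold. Many genes below were picked by these calls. Their exact permutation p-values come from the same values, so they describe the genes and are not a second test. Of 10485 genes above a mean of 5 TPM in either group, 123 were called higher in PTE- (1.17%) and 38 lower (0.362%). In all, 173 genes (1.65%) had an unadjusted p under 0.05, and 0 (0%) passed limma with Benjamini-Hochberg adjustment, the smallest adjusted p being 0.69. Without mouse 9_14, 10449 genes were tested, 320 were called higher (3.06%) and 96 lower (0.919%), and 436 (4.17%) had an unadjusted p under 0.05. One gene, Gfap, then passed the adjustment (1 of 10449, 0.00957%). Where no gene differs, an unadjusted p under 0.05 is expected for a share of 0.05 of the genes. The shares found here, 1.65% and 4.17%, were smaller. The lists of calls shared 150 genes, 114 higher and 36 lower, which is 93.2% of the calls from 15 libraries and 36.1% of those from 14. Among the calls 76.4% were higher in PTE- as deposited, 65.1% after quantile normalization and 69% after centring each library on its median. Without mouse 9_14 these shares were 76.9%, 66.2% and 66%.

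Gfap, the astrocyte intermediate filament, ranged from 179 TPM through a median of 603 to 1060 TPM in the 10 PTE- libraries. The 5 sham libraries, from mice 8_15, 8_16, 9_9, 9_10 and 9_11 in this order here and below, held 188, 235, 245, 373 and 324 TPM. The single PTE- value below the sham range was that of mouse 9_14, and the other 9 PTE- libraries all lay above every sham library. The mean was 638 ± 240 TPM (SD, n = 10), or 689 ± 189 TPM (SD, n = 9) without mouse 9_14, against 273 ± 74 TPM (SD, n = 5). The log2 difference was 1.14 ± 0.31 (SE, exact permutation p = 0.00633), and 1.33 ± 0.19 without mouse 9_14 (exact permutation p = 0.0005, the smallest that 9 against 5 mice can give). By limma with Benjamini-Hochberg adjustment its adjusted p was 0.999 with all libraries and 0.0299 without mouse 9_14. With a further library left out, limma gave Gfap an adjusted p of 0.191 without sham mouse 8_16, 0.0786 without PTE- mouse 9_20 and 0.044 without sham mouse 9_11. Gfap lies on chr11:102887336-102900912, minus strand, of mm10.

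Other genes of astrogliosis moved in the same direction. Vim, the vimentin filament, ran from 86 TPM through 148 to 225 TPM in PTE- libraries and was 82.4, 75.9, 69.7, 94 and 42.7 TPM in sham libraries, with 9 of 10 PTE- libraries above the sham range. Its log2 difference was 0.99 ± 0.21 (SE, exact permutation p = 0.000666), the same value without mouse 9_14. Serpina3n, a secreted serine protease inhibitor, ran from 82.3 through 132 to 180 TPM in PTE- libraries and was 43.8, 78.1, 103, 37 and 71.2 TPM in sham libraries. Here 8 of 10 PTE- libraries lay above all sham libraries, and the log2 difference was 1 ± 0.23 (SE, exact permutation p = 0.00133). C4b, a complement component, ran from 34.4 through 91.7 to 151 TPM in PTE- libraries, against 27.2, 56.2, 32.3, 44.4 and 69 TPM in sham libraries. In 7 of 10 PTE- libraries it exceeded every sham library, and the lowest PTE- value was that of mouse 9_14. Its log2 difference was 0.95 ± 0.3 (SE, exact permutation p = 0.014), and 1.10 ± 0.24 without that mouse (exact permutation p = 0.002). C4b has a near-identical neighbour in the mouse genome, and Serpina3n belongs to a cluster of close relatives, so reads of these genes may have been divided among copies.

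**Figure D1:**
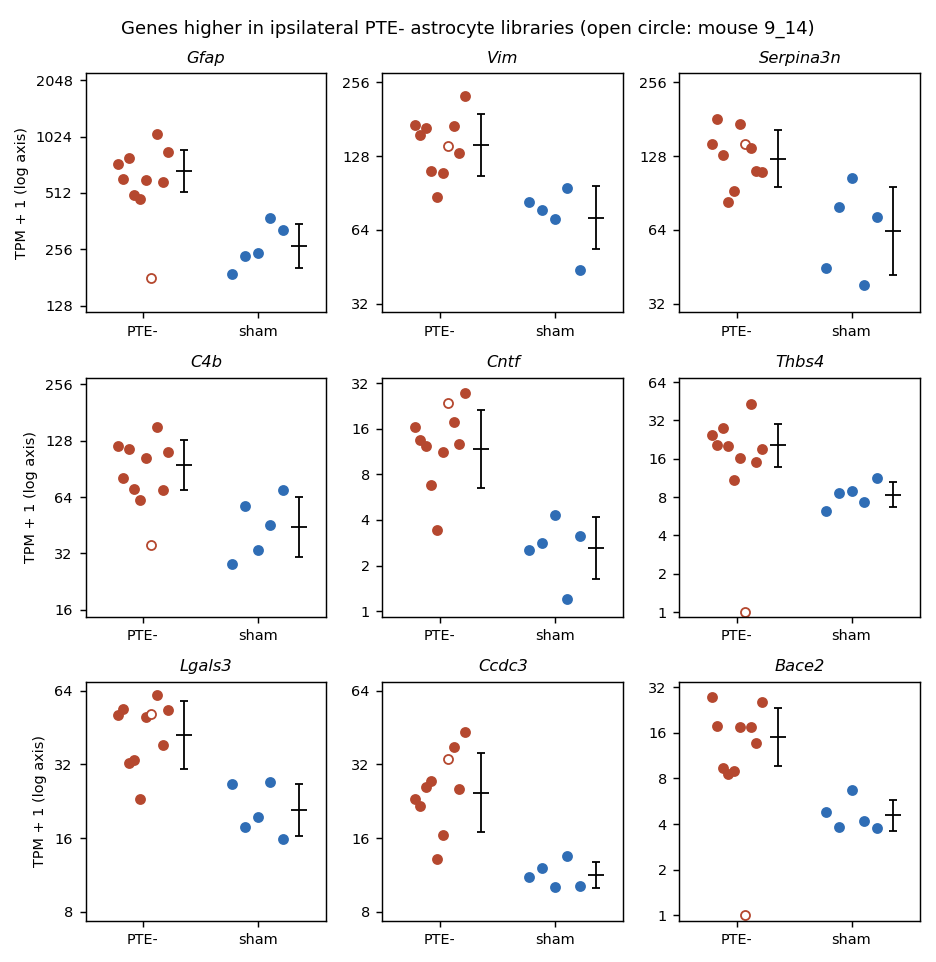
TPM + 1 on a log axis for 9 genes in the ipsilateral PTE- (10) and sham (5) libraries, 1 point a mouse; the open circle is PTE- mouse 9_14, and bars give the mean ± SD of log2(TPM + 1) without that mouse. All 9 filled PTE- points of Gfap and Bace2 lie above the sham points, whereas mouse 9_14 lies below the sham range for both genes and is listed at 0 for Bace2.

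The list of reactive astrocyte genes held 39 genes, all in the table and 28 above the filter. Of these, 6 were called higher (Vim, Serpina3n, C4b, Cd44, Aspg and Gfap) and 0 lower, with a median log2 difference of 0.37 over the 28 against -0.04 over all genes tested. Without mouse 9_14, 11 were called higher and 1 lower, with a median of 0.55 against 0 over all genes. The 5 genes added to those called higher were C3, Timp1, Ggta1, Gbp2 and Ptx3, each listed at 0 in mouse 9_14, and Amigo2, an adhesion molecule also listed at 0 there, was called lower. Without sham mouse 9_11 as well, 11 were called higher and 0 lower, with a median of 0.49. Cd44, a receptor for hyaluronan, averaged 9.18 ± 2.97 TPM (SD, n = 10) against 5.28 ± 3.32 TPM (SD, n = 5), and Aspg, an asparaginase, 22.3 ± 6.6 against 13 ± 3.63 TPM. For Cd44 2 of 10 PTE- libraries lay above the highest sham library, mouse 9_11 with 11 TPM, and for Aspg 7 of 10 lay above all sham libraries. The summed level of the list was 1460 to 3240 TPM in PTE- libraries and 1130 to 2180 TPM in sham libraries. Within mice whose names start with 8 and with 9, whose meaning is not stated, the list median was 0.7 and 0.64 without mouse 9_14.

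Of 13 complement genes and regulators tested with all libraries 1 was called, C4b, and the median was 0.17. C3, the central complement component, was listed at 0 in that mouse, ran from 0.26 through 8.67 to 25.4 TPM in the other 9, and was 0.86, 3.5, 1.08, 3.76 and 2.83 TPM in sham libraries. In 8 PTE- libraries it lay above the whole sham range, and in 1 besides mouse 9_14 it lay below that range. The log2 difference was 1.40 ± 0.52 (SE, exact permutation p = 0.041) without mouse 9_14 and 1.10 ± 0.66 (exact permutation p = 0.147) with it. Of 12 complement genes tested without mouse 9_14, 4 were called higher (C3, C4b, Cd55 and Cd59a, the last 2 being membrane inhibitors of complement) and the median was 0.6. When sham mouse 9_11 was also removed, 2 of 12 were called, C3 and C4b, with a median of 0.21. The C1q chains C1qa, C1qb and C1qc, made mainly by microglia, were not called. They gave 0.53, 0.66 and 0.66 without mouse 9_14, and 0.02, 0.1 and 0.17 with it.

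Cntf had the largest positive log2 difference of the genes called both with and without mouse 9_14. It ran from 2.45 TPM through a median of 12 to 26.3 TPM in PTE- libraries. In sham libraries it was 1.52, 1.83, 3.34, 0.21 and 2.14 TPM, and 9 of 10 PTE- libraries lay above all of them. The means were 13.5 ± 7.18 TPM (SD, n = 10) and 1.81 ± 1.13 TPM (SD, n = 5), a log2 difference of 2.29 ± 0.43 (SE, exact permutation p = 0.000666) that ranged from 2.01 to 2.49 as each library was left out. It was 2.13 within mice whose names start with 8 and 2.39 within those that start with 9. By limma with Benjamini-Hochberg adjustment the adjusted p was 0.69, and 0.17 without mouse 9_14. Cntf, on chr19:12763660-12765632 (minus strand, mm10), lies within the span of Zfp91 on the same strand. Zfp91 itself differed by -0.23, and by -0.04 without mouse 9_14, on the same scale.

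The members of the same pathway were mostly not called. Of 20 listed genes of the CNTF family, its receptors and Stat3 signalling, 14 were tested and 1 was called, Cntf. The median was 0.02 with and without mouse 9_14. The receptor chains gave -0.34 for Cntfr, 0.04 for Lifr and 0.21 for Il6st with all libraries. The kinases gave 0.17 for Jak1 and -0.07 for Jak2, and the factor Stat3 gave 0.37 ± 0.22 (SE, exact permutation p = 0.126). Socs3, a feedback inhibitor, gave 0.06, and 0.39 without mouse 9_14.

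Gfap is a known target of Stat3, and Cntf had the largest positive difference, so the promoters of both genes were read from RefSeq (GRCm38.p6), from 250 bases before the annotated start to 50 after it. The Gfap promoter, chr11:102897151-102897450 on the minus strand, is printed with the letters TTCCNGGAA, the palindrome of STAT proteins, in capitals. This window lies inside the span of Gfap given above, so the start used is not the outer end of that span. The Cntf promoter, chr19:12765583-12765882 on the minus strand, is printed with TGACTCA, the letters of the AP-1 site, in capitals.
Gfap: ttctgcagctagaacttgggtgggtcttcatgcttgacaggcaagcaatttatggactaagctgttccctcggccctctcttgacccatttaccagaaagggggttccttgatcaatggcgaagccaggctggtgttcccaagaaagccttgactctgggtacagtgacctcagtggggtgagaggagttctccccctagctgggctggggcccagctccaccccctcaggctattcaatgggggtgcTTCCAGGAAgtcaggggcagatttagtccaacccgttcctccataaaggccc
Cntf: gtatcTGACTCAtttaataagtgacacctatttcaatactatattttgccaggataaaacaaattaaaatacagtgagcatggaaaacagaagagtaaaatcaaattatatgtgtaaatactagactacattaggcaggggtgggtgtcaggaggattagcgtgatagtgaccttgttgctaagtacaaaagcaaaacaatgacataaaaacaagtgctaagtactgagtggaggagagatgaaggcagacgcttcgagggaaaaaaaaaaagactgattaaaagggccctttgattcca
Searched on both strands, TTCCNGGAA stood in 1.15% and TGACTCA in 5.2% of 32851 promoters of this length. Counted by gene, they stood in a promoter of 1.35% and 5.95% of 27025 genes. Promoters were looked up for some, not all, of the genes described here as higher outside the cilia list. They were found for 8 of those looked up (Gfap, Vim, Serpina3n, Cd44, Aspg, Cntf, Lgals3 and Ccdc3). Of these, 1 held the first motif and 1 the second, which are the matches printed, and the motifs do not overlap. The X-box motif of RFX factors, known from promoters of cilia genes, stood in 0.451% of all promoters. It stood in 0 of 9 promoters found for motile cilia and ependymal markers called without mouse 9_14.

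Lgals3 and Ccdc3 were also called in both analyses. Lgals3, which encodes the lectin galectin-3, ran from 22.2 through 49.5 to 60.4 TPM in PTE- libraries and was 25.5, 16.8, 18.5, 26.1 and 14.8 TPM in sham libraries (9 of 10 above all sham, log2 difference 1.05 ± 0.23 SE, exact permutation p = 0.000999). Ccdc3, which encodes a secreted coiled-coil protein, ran from 12.1 through 24.6 to 42.4 TPM and was 10.1, 11.1, 9.11, 12.5 and 9.19 TPM in sham libraries (9 of 10 above all sham, 1.16 ± 0.25 SE, exact permutation p = 0.000999). Both were called in each of the 15 analyses that left out 1 library.

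Bace2, a membrane aspartyl protease, was listed at 0 in mouse 9_14 and ran from 7.59 through 16.5 to 26.6 TPM in the other 9 PTE- libraries. Sham libraries held 3.82, 2.84, 5.75, 3.17 and 2.77 TPM, below all 9. The log2 difference was 1.72 ± 0.29 (SE, exact permutation p = 0.0005) without mouse 9_14, and 1.33 ± 0.59 (exact permutation p = 0.0566) with it. Its call held in 5 of the 15 analyses that left out 1 library. By limma with Benjamini-Hochberg adjustment the adjusted p was 0.0863 without mouse 9_14. The gene 1500015O10Rik, which encodes the secreted peptide precursor augurin, ran from 8.29 through 28.2 to 69.2 TPM in PTE- libraries and was 16.6, 10.3, 9.03, 7.73 and 2.78 TPM in sham libraries. In 9 of 10 PTE- libraries it exceeded every sham library, and the log2 difference was 1.75 ± 0.42 (SE, exact permutation p = 0.00167). It overlaps an antisense gene, Gm29155, and the library kit does not mark strand.

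Several of the largest differences rested on genes that were near 0 in some libraries and high in others. Ahcy, the hydrolase of S-adenosylhomocysteine, ran from 0.37 through 6.66 to 24.7 TPM in PTE- libraries and was 0.11, 6.11, 0.34, 0.22 and 0.08 TPM in sham libraries. Its log2 difference was 1.76 ± 0.76 (SE, exact permutation p = 0.0516) and the call held in 7 of the 15 analyses that left out 1 library. Tmem14c, a mitochondrial protein of heme synthesis, ran from 2.31 through 63.7 to 140 TPM and was 3.82, 2.49, 2.18, 61.7 and 4.93 TPM in sham libraries (2.21 ± 1 SE, exact permutation p = 0.0639). Both genes overlapped between the groups, and Tmem14c was called in 4 of the 15 analyses. In the other hemisphere the PTE- and sham means were 6.11 and 2.05 TPM for Ahcy and 65.1 and 13 TPM for Tmem14c. Tuba1c, an alpha-tubulin with near-identical relatives, gave 1.73 ± 0.64 (exact permutation p = 0.033). Ahcy overlaps an antisense gene and has retrotransposed copies, so its values are uncertain. Nhlrc4, which overlaps Pigq, gave 1.39, and 1.66 without mouse 9_14, where it was listed at 0. Prr29 gave 1.33, and 1.16 without that mouse, in which it was highest. Neither has a function stated here.

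Motile cilia are the beating appendages of ependymal cells. The list of motile cilia and ependymal markers, here the cilia list, had the highest share of calls. Of 14 listed genes 13 were tested, 7 were called higher (Foxj1, Spef1, Tmem212, Pifo, Cfap126, Enkur and Dnali1) and the median was 0.95 against -0.04 over all genes. Without mouse 9_14, 11 were called, with a median of 1.02, Pifo no longer among them and Ccdc153, Dynlrb2, Ak7, Rsph1 and Mia added. Foxj1, the transcription factor of motile ciliogenesis, ran from 3.93 through 11.1 to 15.6 TPM in PTE- libraries and was 7.12, 3.65, 5.54, 2.28 and 3.28 TPM in sham libraries. In 8 of 10 PTE- libraries it exceeded every sham library (1.10 ± 0.32 SE, exact permutation p = 0.00466). It was called in each of the 15 analyses that left out 1 library, like Spef1 and Cfap126, which encode proteins of the ciliary axoneme.

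The differences of several genes of the list, including Cfap126, rested in part on sham mouse 9_11. Cfap126 kept its call without that mouse. Tmem212 ran from 32.1 through 129 to 173 TPM in PTE- libraries and was 119, 66.3, 53.8, 40.4 and 5.93 TPM in sham libraries, a difference of 1.30 ± 0.54 (SE, exact permutation p = 0.042). Without sham mouse 9_11 its difference was 0.65. Cfap126 ran from 8.43 through 21.5 to 34.6 TPM in PTE- libraries and was 17.3, 8.59, 8.94, 11.3 and 0.85 TPM in sham libraries, a difference of 1.29 ± 0.44 (SE, exact permutation p = 0.00733). For both genes the lowest sham value was that of mouse 9_11. Without that mouse 3 of the 13 genes were called, with a median of 0.4. Without it and PTE- mouse 9_14 the count was 4 (Foxj1, Spef1, Tmem212 and Cfap126) and the median 0.62. Without sham mouse 9_10, 5 were called. Rarres2, the most abundant gene of the list, gave 0.18. The summed level of the list was 506 to 1500 TPM in PTE- libraries and 297 to 1010 TPM in sham libraries, so the groups overlapped. The part of ependymal RNA in these values was not tested. The list median was 0.69 within mice whose names start with 8 and 1.34 within those that start with 9, without mouse 9_14.

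**Figure D2:**
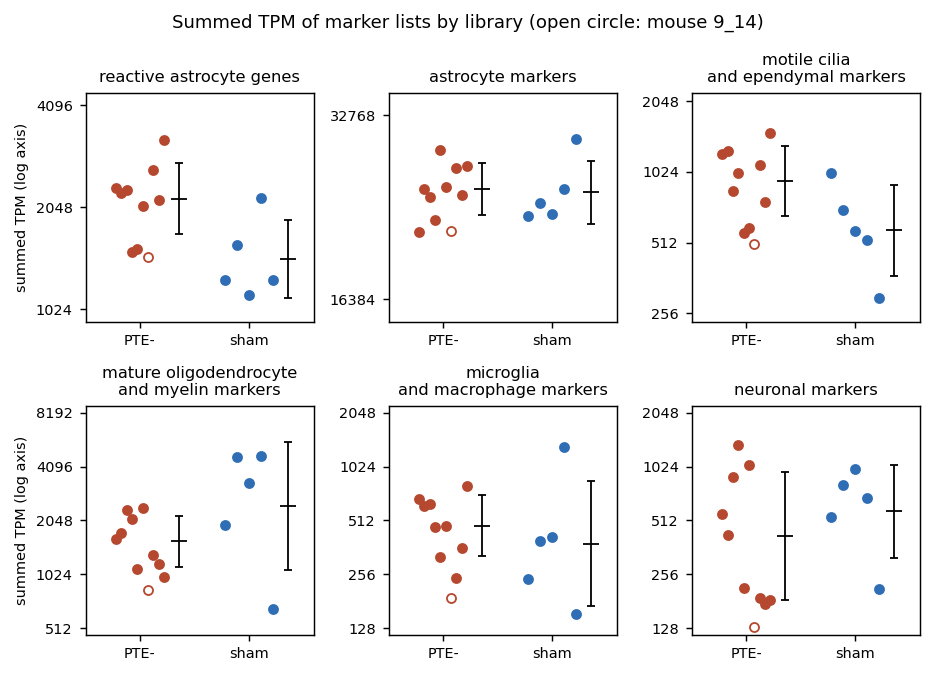
Summed TPM on a log axis of 6 gene lists in the ipsilateral PTE- (10) and sham (5) libraries, 1 point a mouse; the open circle is PTE- mouse 9_14, and bars give the mean ± SD of log2 summed TPM without that mouse. Motile cilia and ependymal markers reach 1500 TPM in PTE- libraries and 1010 TPM in sham libraries. Sham mouse 9_11 is lowest for this list and for the myelin and microglial lists.

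Of 16 genes of mature oligodendrocytes and myelin tested, 6 were called lower in PTE- libraries (Mog, Mag, Opalin, Hapln2, Tmem125 and Ermn), 0 higher, and 0 of the 16 had a difference above 0. The median was -1.01, and -0.82 without mouse 9_14, when again 6 were called, with Gpr37 in place of Opalin. Mog, a glycoprotein of the outer myelin surface, was listed at 0 in mouse 9_14 and ran from 0.67 through 6.96 to 9.29 TPM in the other 9 PTE- libraries. Sham libraries held 14.4, 108, 27.3, 17.4 and 2.85 TPM, so 4 of 5 lay above all PTE- libraries. The log2 difference was -1.72 ± 0.58 (SE, exact permutation p = 0.0185) without mouse 9_14 and -1.98 ± 0.68 (exact permutation p = 0.016) with it.

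Mag, the myelin-associated glycoprotein, was listed at 0 in mouse 9_14, ran from 4.7 through 12.5 to 24.5 TPM in the other 9 and was 36.3, 120, 41.8, 27.3 and 6.8 TPM in sham libraries (-1.39 ± 0.47 SE, exact permutation p = 0.0235 without mouse 9_14). Hapln2, a link protein of the node of Ranvier, gave -1.36 ± 0.52, and Tmem125 gave -1.32 ± 0.47, both without mouse 9_14. Each of these genes was highest in sham mouse 8_16 and lowest among sham libraries in mouse 9_11. Without sham mouse 8_16, 13 of the genes stayed above the filter and 1 was called, Mog. Without it and PTE- mouse 9_14 the called genes were 2 of 13, Mog and Mag, and the median was -0.34. Without sham mouse 9_11, in contrast, 11 of 16 were called with a median of -1.54.

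Mobp, Mbp and Cnp, also genes of the list, were not called. Mobp gave -1.73, Mbp -0.98 ± 0.68 (SE, exact permutation p = 0.22) and Cnp -0.04 ± 0.13 with all libraries. Without mouse 9_14, where Mobp was listed at 0, these differences were -1.11, -0.72 and -0.08. The summed level of the list was 842 to 2410 TPM in PTE- and 659 to 4660 TPM in sham libraries. Tspan2, a tetraspanin of oligodendrocytes outside the list, was listed at 0 in mouse 9_14 and ran from 3.34 through 5.78 to 6.68 TPM in the other 9 PTE- libraries, against 5.79, 31.3, 11.9, 13.2 and 3.94 TPM (-0.88 ± 0.33 SE, exact permutation p = 0.0195 without mouse 9_14). Of 8 precursor markers 0 were called with all libraries (median -0.19), and 1 was called higher without mouse 9_14, C1ql1 at 0.80 ± 0.32 (SE, median of the list -0.13). C1ql1 was listed at 0 in that mouse. The share of oligodendrocyte RNA in each preparation was not measured separately, and its part in these values was not tested.

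Sst, the interneuron peptide somatostatin, was lower as well. It was listed at 0 in mouse 9_14, ran from 4.41 through 10.4 to 25.4 TPM in the other 9 PTE- libraries and was 37.1, 19, 18.5, 24.4 and 17.1 TPM in sham libraries (-1.02 ± 0.37 SE, exact permutation p = 0.036 without mouse 9_14). Of 11 neuronal markers tested 0 were called, with a median of -0.64, or -0.32 without mouse 9_14, and their summed level was 130 to 1350 TPM in PTE- and 213 to 995 TPM in sham libraries. Zfp433, a zinc finger gene, gave -0.98 ± 0.43 with all libraries and -0.74 ± 0.29 without mouse 9_14. Of the 12 genes with the largest negative differences, 4 have systematic names (Gm10974, CR974586.2, Gm11027 and Gm29394), with differences of -2.45, -1.5, -1.14 and -1.14. Gm10974 was listed at 0 in 2 of 5 sham libraries and held 19.4, 30.8 and 24.7 TPM in the others, and its highest PTE- value was 9.38 TPM with a median of 0.

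**Figure D3:**
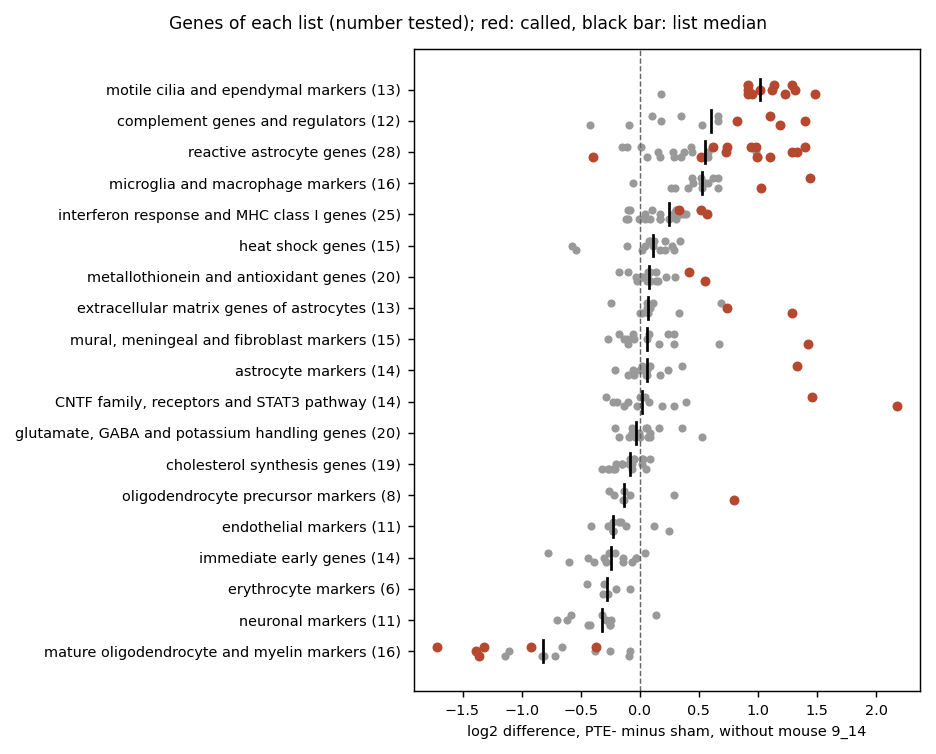
Each point is the log2 difference, PTE- minus sham without PTE- mouse 9_14, of 1 tested gene of a list; red points were called (limma unadjusted p under 0.05 and at least 1.2-fold), black bars are list medians, and the dashed line is the median of all genes tested. The cilia list has a median of 1.02, the reactive list 0.55 and the myelin list -0.82, and the glutamate, GABA and potassium list -0.03.

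Genes of the usual tasks of astrocytes did not pass the test with or without mouse 9_14. Of 20 genes that handle glutamate, GABA and potassium 0 were called in either analysis, with medians of -0.01 and -0.03. Without mouse 9_14 and sham mouse 9_11, 2 were called higher, with a median of 0.18. The glutamate transporters Slc1a2 and Slc1a3 gave -0.21 and 0.09 without mouse 9_14, glutamine synthetase Glul gave 0, the potassium channel Kcnj10 gave -0.07 and the water channel Aqp4 gave 0.36. Of 14 astrocyte markers Gfap alone was called, with a median of 0.04. Without mouse 9_14 and sham mouse 9_11, 3 were called higher, with a median of 0.25. Of 14 immediate early genes 0 were called and 2 differed above 0 (median -0.29), Fos giving -0.39 and Nr4a1 -0.8. Cholesterol synthesis genes (0 of 19, median -0.09) and heat shock genes (0 of 15, median 0.15) had no calls either.

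Smaller numbers were called in the other lists. Among 24 genes of the interferon response and class I antigen presentation 1 was called, Tapbp, the peptide-loading protein tapasin, at 0.35 ± 0.15 (SE, exact permutation p = 0.0253). Its call was lost without sham mouse 8_15, 8_16 or 9_9. Without mouse 9_14, 3 of 25 were called higher, Ifitm3, Gbp2 and Tapbp, with a median of 0.25. Without mouse 9_14 and PTE- mouse 9_20, 0 of 23 were called, with a median of 0.12. With sham mouse 9_10 alone left out the count was 4 of 24 with a median of 0.43. Among 20 metallothionein and antioxidant genes 2 were called, Hmox1, heme oxygenase, at 0.42 ± 0.18, and Mgst1, a glutathione transferase, at 0.53 ± 0.2. Without sham mouse 9_10 neither was called. Contralateral Hmox1 differed by 0.35 between the groups (exact permutation p = 0.012). The extracellular matrix list held Cd44 alone, and also Thbs4, a thrombospondin, without mouse 9_14. Thbs4 was listed at 0 in that mouse, ran from 9.84 through 19.1 to 42.2 TPM in the other 9 and was 5.2, 7.68, 7.92, 6.36 and 10.3 TPM in sham libraries (1.29 ± 0.26 SE, exact permutation p = 0.000999 without mouse 9_14). Microglia and macrophage markers gave 0 of 16 calls with all libraries, median 0.1. Without mouse 9_14 Trem2, a lipid-sensing microglial receptor, and Fcrls were called and the median was 0.53. Without sham mouse 9_11 as well, 0 were called and the median was 0.12, whereas with sham mouse 9_10 alone left out 4 of 16 were called and the median was 0.65. The summed microglial level was 189 to 799 TPM in PTE- and 153 to 1320 TPM in sham libraries. Endothelial (0 of 12, median -0.17) and erythrocyte markers (0 of 6, median -0.11) had no calls. Mural, meningeal and fibroblast markers had 0 of 14 calls (median 0.12), their summed level being 5060 TPM in mouse 9_14 and 910 to 2340 TPM in the other PTE- libraries.

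The contralateral hemisphere was available for 9 of the PTE- mice and all 5 sham mice, mouse 9_14 not among them. Contralateral Gfap averaged 330 ± 131 TPM in the 5 sham mice and 307 ± 131 TPM in the 9 PTE- mice (SD). These differed by -0.13 on the log2 scale (exact permutation p = 0.741). Contralateral Cntf was 3.17 ± 3.43 and 2.92 ± 3.25 TPM, a difference of 0.12 (exact permutation p = 0.845). The contralateral difference was 0.81 for Ahcy, 1.11 for Tuba1c and 1.85 for Tmem14c, beside 1.51, 1.66 and 2.10 on the ipsilateral side without mouse 9_14. The cilia list had a contralateral median of -0.05, against 1.02 on the ipsilateral side. For the reactive list these values were -0.11 and 0.55, and for the myelin list -0.17 and -0.82. Over all 10449 genes the contralateral median was -0.09.

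The difference between the hemispheres of each mouse, ipsilateral minus contralateral, was then compared between the groups across 10449 genes with limma. Higher in PTE- mice by the same rule for a call were 600 genes (5.74%), and 74 were lower (0.708%). In all 711 genes (6.8%) had an unadjusted p under 0.05 and 0 (0%) passed the Benjamini-Hochberg adjustment of limma, the smallest adjusted p being 0.319. The median over all genes was 0.08. Since the genes named here were chosen with their ipsilateral values known, and these enter the hemisphere difference, their values are given as a description. Olig2 was instead picked for its hemisphere difference, so its values cannot test that difference. How many of all genes show the counts and ranges given below was not determined.

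C4b was higher on the ipsilateral side in 9 of 9 PTE- mice, by 0.64 to 1.83 on the log2 scale. In sham mice this held for 2 of 5, with a range of -0.65 to 0.7. Gfap was higher on the ipsilateral side in 9 of 9 PTE- and 2 of 5 sham mice, with a median of 1.26 and -0.06. Bace2 was higher on the ipsilateral side in 8 of 9 PTE- and 0 of 5 sham mice. Its means were 1.13 and -0.93, so that sham mice also departed from equal hemispheres. Olig2, a transcription factor of the oligodendrocyte lineage, was lower on the ipsilateral side in 9 of 9 PTE- mice. Its range there was -0.95 to -0.2, against -0.08 to 0.35 in sham mice. On the ipsilateral side alone Olig2 was not called (-0.15 ± 0.26).

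Slc47a1, a transporter listed among meningeal markers, had mean hemisphere differences of 1.69 in PTE- and -1.56 in sham mice. Sham mouse 9_10 held 50.4 TPM contralaterally and was listed at 0 ipsilaterally, a difference of -5.68. Ahcy ranged from -0.04 to 0.48 in PTE- and from -0.95 to -0.21 in sham mice. By limma with Benjamini-Hochberg adjustment over all genes its adjusted p was 0.642. Cntf was higher on the ipsilateral side in 9 of 9 PTE- and 2 of 5 sham mice, and Foxj1 in 7 of 9 and 1 of 5.

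**Figure D4:**
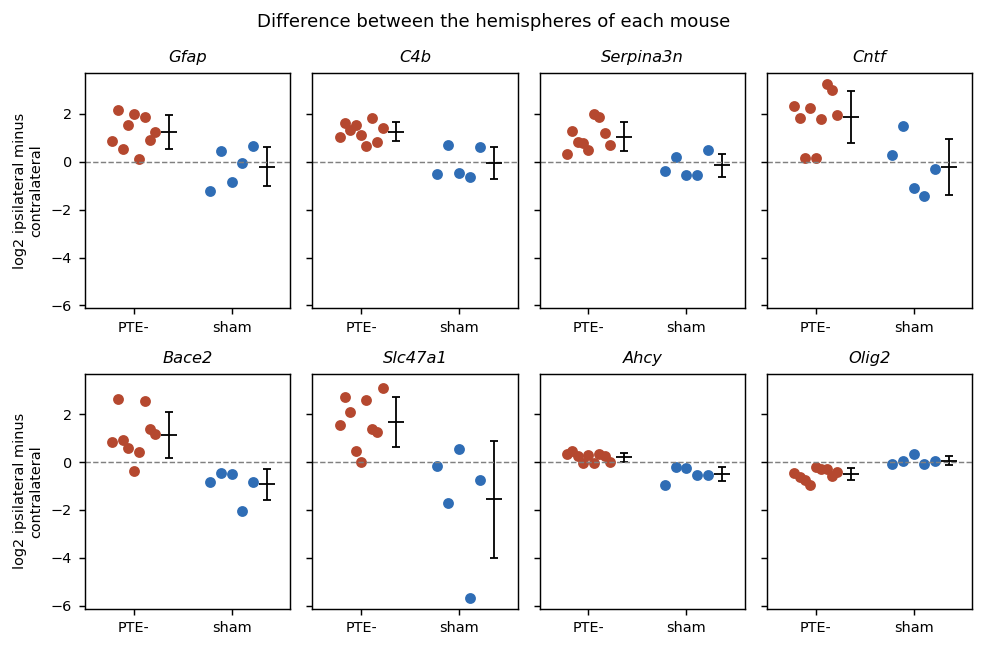
Ipsilateral minus contralateral log2(TPM + 1) of each mouse with both libraries (9 PTE-, 5 sham) for 8 genes; bars give the mean ± SD, and the dashed line marks equal hemispheres. All 9 PTE- mice lie above 0 for Gfap, C4b, Serpina3n and Cntf and below 0 for Olig2, which was picked for this difference. Sham mice lie on both sides of 0 for each of these genes.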

How the data were processed

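RNA of ACSA-2 enriched cortical astrocytes was sequenced after library preparation with the SMART-Seq v4 low-input kit, which does not mark strand. The authors trimmed reads with Trim Galore 0.6.4 and quantified genes on mm10 with RSEM 1.2.28 and Bowtie2 2.4.1, per the submitters' processing notes, which also name DESeq2 1.36.0. The annotation release is not given in the sources used here. The deposited values are TPM, which keep no depth, so no counting interval can be given. Of 21975 gene identifiers, 21933 were matched to a symbol through GENCODE vM21 and 42 were not.

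Genes above a mean of 5 TPM in at least 1 group were tested on log2(TPM + 1) with limma 3.58.1 (R 4.3.3, trended variance), without covariates, since TPM are not counts. A fold change on this scale understates that of low genes. A call needs an unadjusted p under 0.05 and a fold of at least 1.2, and adjusted p-values are Benjamini-Hochberg values over all genes tested. Single genes were compared by two-sided exact permutation tests (Python 3.11.15, scipy 1.17.1) over all 3003 splits of 10 against 5 libraries, or 2002 splits of 9 against 5, with smallest possible p of 0.000333 and 0.0005. Named genes are the 12 largest positive and 12 largest negative differences and the 6 smallest p among genes called with and without PTE- mouse 9_14, the called genes of 19 lists with up to 4 abundant others of each, and genes the study names for sham against all CCI-injured mice. The difference between hemispheres was fitted with limma across all genes, chosen after seeing the data. The exact test planned for the named genes alone is not given because they were chosen on the same ipsilateral values. It did serve to pick Olig2 for description. Members and lists were chosen with earlier results of these data known. The exact p-values of genes picked for their calls are unadjusted and come from the values used to pick them. Each library is 1 mouse, and the labels name no batch. The tests were checked on simulated data. Alternatives were other pseudocounts, filters, scalings, library weights, a covariate, a variance model, fold thresholds and leaving out each library.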

Additional observations from a re-analysis of the deposited data

Results flagged for a closer look

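Single libraries stood far from the rest of their group in 29 of 168 groups of values examined. Independent values would give about 1 in 20, but that rate does not apply here. The values share the same libraries, and some genes were included because they were called only without mouse 9_14. Of these, 18 were in PTE- mouse 9_14 and 6 in sham mouse 9_11. Mouse 9_14 was lowest in genes above 0 (10727), in its median correlation with the other libraries (0.733), and in Gfap (179 TPM), Gpr37 (15.6 TPM), Ccdc153 (0.51 TPM), Mia (0.11 TPM) and CR974586.2 (0.04 TPM). In the same mouse Bace2, Mag, Sst, Tspan2, Ak7, Amigo2, C1ql1, Gbp2, Ggta1, Ptx3 and Thbs4 were listed at 0.

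Sham mouse 9_11 had the lowest median correlation of its group (0.895), the lowest Cfap126 (0.85 TPM), Dynlrb2 (8.42 TPM), Pifo (1.12 TPM) and Rsph1 (14.5 TPM), and the highest Gm11027 (317 TPM). Sham mouse 8_16 was highest in Ahcy (6.11 TPM) and Timp1 (18 TPM) and sham mouse 9_10 was highest in Tmem14c (61.7 TPM). PTE- mouse 8_11 was highest in Gm10974 (9.38 TPM) and lowest in the summed precursor markers of oligodendrocytes (177 TPM).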

How the results depend on the processing

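With all 15 libraries 161 genes were called. The count was 361 (193 higher, 168 lower) with no filter on low values, 256 with a filter at 1 TPM, 650 (469 higher, 181 lower) with limma array weights and 95 at a fold of at least 1.5. Leaving out 1 library gave 137 to 416 calls, the highest without PTE- mouse 9_14, and 261 without sham mouse 9_11. The number of genes with a limma adjusted p under 0.05 was 0, 1 with array weights (Gfap, adjusted p = 0.00425), and 0 to 1 as each library was left out (Cntf without PTE- mouse 9_12, Gfap without 9_14). The other alternatives gave 148 to 238 calls. Without mouse 9_14, in alternatives chosen after seeing the data, the 416 calls became 657 with array weights and 635 (515 higher, 120 lower) also without sham mouse 9_11. Gfap then lost its adjusted call with quantile normalization (limma adjusted p = 0.0603). Causes were not tested. None of the results computed changed direction while called. No paired analysis was possible because no mouse is in both groups. TPM keep no depth, so the limit that depth sets is unknown, and values of 0 in mouse 9_14 cannot be told apart from failed detection.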
